A study of Mus musculus with 8 samples.

Results

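The genes described here are the 37 rows of the deposited count table whose symbol starts with mt-, out of 53921 rows that name a gene. They are all the genes of the mouse mitochondrial genome that the table lists, with 13 that encode proteins, 2 that encode ribosomal RNAs and 22 that encode transfer RNAs. Their names were found for 37 of 37 among the RefSeq genes of the mitochondrial chromosome (MT) on GRCm38.p6, the assembly behind mm10, from which positions and lengths are taken. The libraries are 4 RNA-seq libraries of mouse induced cardiomyocytes collected on day 5, which are fibroblasts made to take on heart muscle features through added transcription factors. Cells of all 4 libraries received MGT, the usual short name for Mef2c, Gata4 and Tbx5 together. Of these, 2 carried the hairpin labelled shNT, taken as the control, and 2 carried the hairpin labelled shGrhl3, aimed at the Grainyhead-like factor Grhl3. The source label of the cells ends in "(Neo)", and no strain, age or sex is used here. The table names the hairpin columns shGrhl1 and shGrhl2, which were read as replicates 1 and 2 of shGrhl3. Whether the 2 libraries of a group stem from separate cultures is not stated, and each p-value is set against the spread of these libraries alone, which may be technical.

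Mitochondrial DNA is a small circle without introns, copied and transcribed inside the organelle. Both strands are read into long precursors, which are cut at the transfer RNAs into messenger and ribosomal RNAs, and most messenger RNAs then receive a short poly(A) tail. The proteins are core subunits of respiratory complexes I, III and IV and of the ATP synthase (complex V). They are built together with many nuclear-encoded subunits, and beating heart muscle depends heavily on them.

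Named counts per library ranged from 16102839 to 19822541. Across genes, which are not independent replicates, Pearson's r of log2 CPM was 0.989 (shNT) and 0.988 (shGrhl3) for libraries of 1 group, and 0.963 to 0.967 for libraries of different groups. Grhl3 had 31 and 14 counts in shNT and 11 and 19 in shGrhl3, and its fall was not detected at this depth (log2 fold change -0.69, SE 0.56, edgeR adjusted p = 0.362). The cardiomyocyte marker list summed to 4914 and 4925 CPM (counts scaled to the TMM library size) in shNT and to 6163 and 6012 CPM in shGrhl3. Of 13 tested members, 6 were higher in shGrhl3 (Myh6 at a log2 fold change of 3.61, Myh7 at 2.69, Tnni3 at 2.59, Mybpc3, Actc1 and Myl7) and Nppa was lower. Tnnt2, the largest part of that sum, had a log2 fold change of -0.00 (adjusted p = 0.984), and Myl2, Myl3 and Nkx2-5 had at most 33 counts in a library. Fibroblast markers summed to 25435 and 25131 CPM in shNT and 23608 and 25308 CPM in shGrhl3. Of these 12, 6 were lower in shGrhl3 (Pdgfra at a log2 fold change of -1.14, Tcf21, Ddr2, Dcn, Fn1 and Thy1) and Col1a1 was higher, with a list median of -0.24. Of 15 tested leukocyte markers, 12 were lower in shGrhl3 and 1, Csf1r, was higher (log2 fold change 1.30, edgeR adjusted p = 1.13e-06), with a list median of -2.48. The list summed to 695 and 956 CPM in shNT against 161 and 128 CPM in shGrhl3, with 0 of its 20 genes at 0 in all libraries. Beside the calls of each marker list, 17.1% of all genes tested were higher and 17.9% lower (edgeR adjusted p under 0.05). Endothelial markers summed to 114 and 106 CPM in shNT and 114 and 116 CPM in shGrhl3. Of these 10, Flt1 was higher and Tek and Cldn5 were lower, with a list median of -0.45. Smooth muscle and pericyte markers summed to 2803 and 2670 CPM in shNT and 2512 and 2320 CPM in shGrhl3. Of these 8, Cspg4 was higher and Tagln and Cnn1 were lower, with a list median of -0.31. The part of these differences in the mitochondrial results was not tested. In such bulk libraries, a change in the makeup of the cells and a change of RNA within cells cannot be told apart.

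Most of the mitochondrial signal came from a few genes. Per kilobase of gene, mt-Co1, the catalytic subunit of complex IV, was highest in every library, at 5913 and 5994 CPM per kilobase in shNT and 6314 and 6420 in shGrhl3. Next came mt-Cytb, the cytochrome b of complex III (2767 to 3382 CPM per kilobase over the 4 libraries), and mt-Nd1 of complex I (2547 to 3220), whose ranges overlap. The complex I genes mt-Nd2, mt-Nd5, mt-Nd6 and mt-Nd4 followed with overlapping ranges between 1069 and 1767 CPM per kilobase. The transfer RNA gene mt-Tp stood at 436 to 540 CPM per kilobase, and the ribosomal RNA genes mt-Rnr2 and mt-Rnr1 at 379 to 516 and 279 to 400. The ribosomal RNAs thus lay below the 7 well counted messenger RNAs, and the sources used here do not give whether RNA was selected for poly(A) or depleted of ribosomal RNA.

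A run of 6 neighbouring protein genes had almost no counts. From mt-Co2 to mt-Nd4l (MT, 7013 to 10173) the level was between 0.450 and 36.5 CPM per kilobase in any library, against 1069 to 6420 for the other 7 protein genes. These 6 genes hold 26.3% of the protein-coding length and took 0.151% and 0.155% of the protein-coding mitochondrial counts in shNT and 0.145% and 0.138% in shGrhl3. Within the run, mt-Co2, the copper-bearing subunit of complex IV, had 421, 366, 501 and 448 counts in shNT replicates 1 and 2 and shGrhl3 replicates 1 and 2. In the same order, mt-Atp6, the proton channel subunit of ATP synthase, had 47, 55, 61 and 62 counts, and mt-Co3 had 104, 88, 99 and 85. The remaining members were lower still, with 4, 2, 5 and 7 counts for mt-Atp8, 3, 5, 16 and 13 for mt-Nd3, and 10, 3, 7 and 8 for mt-Nd4l. The step is abrupt at both ends, from mt-Co1 to mt-Co2 and from mt-Nd4l to mt-Nd4, and it is present in all 4 libraries.

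**Figure D1:**
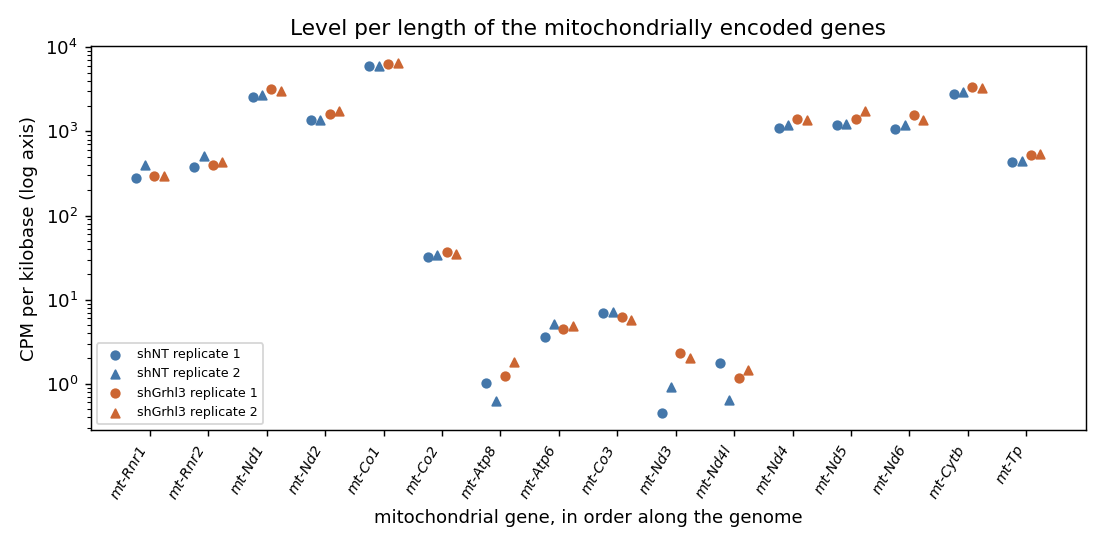
Level of the 16 mitochondrial genes with any count, as CPM per kilobase of gene on a log axis, in order along the mitochondrial genome, with 1 point per library (blue shNT, orange shGrhl3). The 6 genes from mt-Co2 to mt-Nd4l lie between 0.450 and 36.5 CPM per kilobase, far below the genes on either side.

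Pseudogenes with the lengths of mt-Atp6 and mt-Nd4l lie next to each other in the nuclear genome. RefSeq lists the pseudogene Gm10925 on chromosome 1 (24613971 to 24614651, GRCm38.p6) with mt-Atp6 among its synonyms, and both are 681 bases long. On the same chromosome, the pseudogene Gm10222 (24612404 to 24612700) has the 297 bases of mt-Nd4l. The end of Gm10222 and the end of Gm10925 lie 1951 bases apart, and the starts of mt-Atp6 and mt-Nd4l lie 1950 bases apart on MT. Gm10925 had 99 and 76 counts in shNT and 125 and 129 in shGrhl3, more than mt-Atp6 in each library, and Gm10222 had 12, 11, 11 and 25. The sources used here do not give how reads that fit a mitochondrial gene and a nuclear pseudogene were counted, so the levels of the 6 genes are uncertain, and the part of the pseudogenes in the low counts was not tested. Neither pseudogene passed the test between groups (edgeR log2 fold change 0.40, SE 0.23, adjusted p = 0.184 for Gm10925 and 0.51, SE 0.61, adjusted p = 0.564 for Gm10222).

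Transfer RNA rows were nearly empty. Of 22, 21 had 0 counts in all 4 libraries, where the 3 counts that a count of 0 allows correspond to 0.151 to 0.186 CPM. The exception was mt-Tp, the proline transfer RNA next to the control region (MT, 15356 to 15422), with 559 and 478 counts in shNT and 702 and 676 in shGrhl3. It is encoded on the light strand, like mt-Nd6, and the sources used here do not give the strand setting of the counting, so reads of the opposite strand cannot be told apart for these genes.

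Of the 7 complex I messenger RNAs, 5 were higher in the shGrhl3 libraries, mt-Nd3 did not pass and mt-Nd4l was too low to test. Of the 37 genes, 14 had enough counts to be tested (11 protein genes, 2 ribosomal RNAs and mt-Tp), and 6 of them were higher in shGrhl3 and 0 lower by the quasi-likelihood test of edgeR (adjusted p under 0.05). Of all 15324 genes tested, 35% passed, 17.1% higher and 17.9% lower. At an unadjusted p of 0.05, edgeR counted 8 higher and 0 lower members, and DESeq2 and limma-voom each called 6 higher and 0 lower after adjustment. The 6 were mt-Nd1, mt-Nd2, mt-Nd4, mt-Nd5 and mt-Nd6, which form part of the membrane arm of complex I, and mt-Cytb. The median log2 fold change was 0.24 over the 14 members and -0.01 over all genes tested. In 11 of 14 members the libraries of the groups did not overlap, 10 of them with shGrhl3 higher, against 66.5% of all genes tested without overlap and 32.8% without overlap and higher and 33.7% without overlap and lower.

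The gene with the lowest p-value was mt-Nd6 (MT, 13552 to 14070), the single protein gene on the light strand, with 555 and 617 CPM in shNT and 805 and 705 CPM in shGrhl3. Both shGrhl3 libraries lay above both shNT libraries, a rise of 1.29-fold (log2 fold change 0.37, SE 0.08, adjusted p = 0.00168). Its neighbour mt-Nd5 (MT, 11742 to 13565), with which it overlaps by 14 bases, stood at 2199.9 and 2238 CPM in shNT and 2533 and 3223 CPM in shGrhl3. It rose 1.30-fold (log2 fold change 0.38, SE 0.09, adjusted p = 0.00443), and shGrhl3 replicate 2 was well above replicate 1. The count ratio of mt-Nd5 to mt-Nd4 showed the same library, at 1.46, 1.35 and 1.30 in shNT replicates 1 and 2 and shGrhl3 replicate 1 and 1.73 in shGrhl3 replicate 2. With shGrhl3 replicate 2 left out, the log2 fold change of mt-Nd5 was 0.21, with replicate 1 of that group left out it was 0.54, and its call held in each of the 14 alternatives.

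The rises of mt-Nd1, mt-Nd2 and mt-Nd4 were between 0.25 and 0.30 on the log2 scale. mt-Nd2 (MT, 3914 to 4951) had 1402 and 1404 CPM in shNT and 1653 and 1791 CPM in shGrhl3 (log2 fold change 0.30, SE 0.08, adjusted p = 0.00480). mt-Nd4 (MT, 10167 to 11544) had 1505 and 1660.1 CPM in shNT and 1946 and 1865 CPM in shGrhl3 (log2 fold change 0.27, SE 0.08, adjusted p = 0.0111). mt-Nd1 (MT, 2751 to 3707) had 2438 and 2583 CPM in shNT and 3082 and 2874 CPM in shGrhl3 (log2 fold change 0.25, SE 0.08, adjusted p = 0.0174). In each of these 3 genes both shGrhl3 libraries lay above both shNT libraries. mt-Nd3, inside the poorly counted run, had a log2 fold change of 1.67 (SE 0.75, adjusted p = 0.0881) from at most 16 counts per library, and mt-Nd4l was too low to test. Fewer members were called higher with shNT replicate 1, shNT replicate 2 or shGrhl3 replicate 1 left out, as was true of all genes tested. With 1 library left out, the log2 fold change was 0.20 to 0.32 for mt-Nd1, 0.26 to 0.35 for mt-Nd2 and 0.20 to 0.34 for mt-Nd4. Fits with a library left out assume that the lone library varies like the others.

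**Figure D2:**
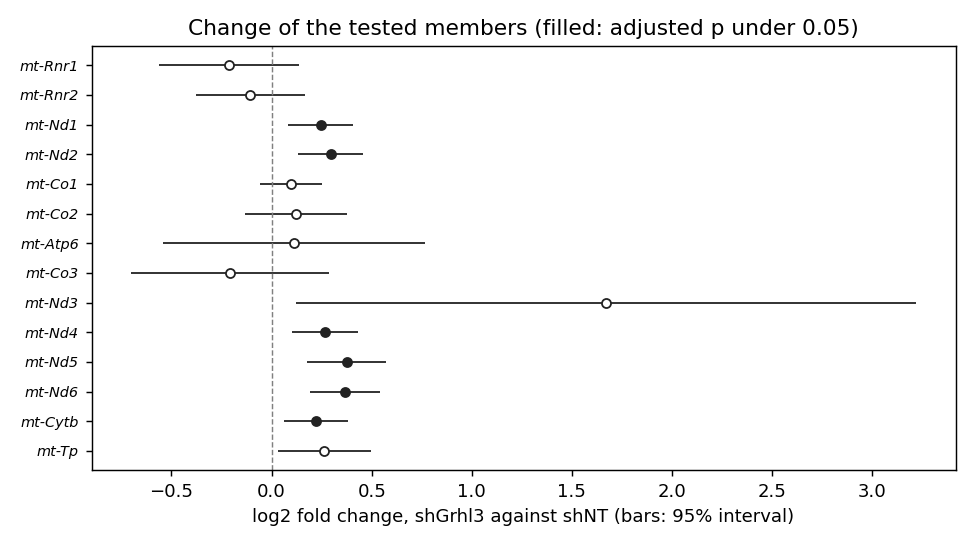
Log2 fold change of shGrhl3 against shNT for the 14 tested mitochondrial genes, in order along the genome, with 95% intervals from edgeR's quasi-likelihood test and filled points for an adjusted p under 0.05. The 6 filled points lie between 0.22 and 0.38, and the ribosomal RNAs lie below 0 with intervals that reach above it.

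mt-Cytb, the single mitochondrially encoded subunit of complex III (MT, 14145 to 15288), also rose. It had 3165 and 3339 CPM in shNT and 3869 and 3727 CPM in shGrhl3 (log2 fold change 0.22, SE 0.08, adjusted p = 0.0273). The groups did not overlap, and the call was lost without shNT replicate 1 (adjusted p = 0.352), without shNT replicate 2 (0.141) and without shGrhl3 replicate 1 (0.0618), as was that of mt-Nd1 (0.289, 0.0972 and 0.0635).

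No tested complex IV or V gene passed, but all of them except mt-Co1 lie in the poorly counted run. mt-Co1 (MT, 5328 to 6872), the most abundant member, had 9136 and 9261 CPM in shNT and 9755 and 9919.6 CPM in shGrhl3. The groups did not overlap, but the difference was small (log2 fold change 0.10, SE 0.08, 95% interval -0.06 to 0.25, adjusted p = 0.344). mt-Co2 had 21.999 and 23.0 CPM in shNT and 24.99 and 24.0 CPM in shGrhl3 (log2 fold change 0.12, SE 0.12, adjusted p = 0.483). mt-Co3 had 5.43 and 5.54 CPM in shNT and 4.94 and 4.55 CPM in shGrhl3 (log2 fold change -0.21, SE 0.24, adjusted p = 0.541). For mt-Atp6 the interval was wide, from -0.54 to 0.76 on the log2 scale, and mt-Atp8, whose reading frame overlaps that of mt-Atp6 by 43 bases, was too low to test.

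Neither ribosomal RNA of the mitochondrion passed the test. mt-Rnr1, the small-subunit RNA (MT, 70 to 1024), had 266 and 382 CPM in shNT and 280 and 278 CPM in shGrhl3 (log2 fold change -0.21, SE 0.15, adjusted p = 0.323). mt-Rnr2, the large-subunit RNA (MT, 1094 to 2675), had 599 and 816 CPM in shNT and 637 and 678 CPM in shGrhl3 (log2 fold change -0.11, SE 0.12, adjusted p = 0.556). In both genes shNT replicate 2 was the highest library and shNT replicate 1 the lowest, with the shGrhl3 libraries between them. The cytosolic small-subunit RNA Rn18s was also highest in shNT replicate 2, at 0.573% and 2.00% of named counts in shNT and 0.0959% and 0.156% in shGrhl3. Its part in the mitochondrial ribosomal values was not tested. Without shNT replicate 1, mt-Rnr1 was called lower (log2 fold change -0.45, adjusted p = 0.00238), and without shNT replicate 2 its log2 fold change was 0.07. mt-Tp had 29.2 and 30.1 CPM in shNT and 35.01 and 36.2 CPM in shGrhl3 and missed the threshold (log2 fold change 0.26, SE 0.11, adjusted p = 0.0712), which it passed with scaling by library size only (0.0472).

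As a share of all named counts, mitochondrial messenger RNAs took 2.03% (95% Wilson interval 2.02 to 2.04) and 2.08% (2.08 to 2.09) in shNT. They took 2.40% (2.39 to 2.40) and 2.42% (2.42 to 2.43) in shGrhl3. These intervals cover counting error only, and nearly all of these counts came from the 7 protein genes outside the poorly counted run. The group means were 2.06 ± 0.0380% and 2.41 ± 0.0199% (SD, n = 2), a ratio of 1.17, with no overlap. The exact two-sided permutation test gave p = 0.333, the smallest p that 2 libraries against 2 allow. Mitochondrial ribosomal RNAs took 0.0860% and 0.118% in shNT and 0.0927% and 0.0960% in shGrhl3, with overlap. There were 23.6 and 17.7 messenger counts per ribosomal count in shNT and 25.8 and 25.3 in shGrhl3 (exact two-sided permutation p = 0.333). shNT replicate 2 held the lowest of these ratios and the highest Rn18s share.

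**Figure D3:**
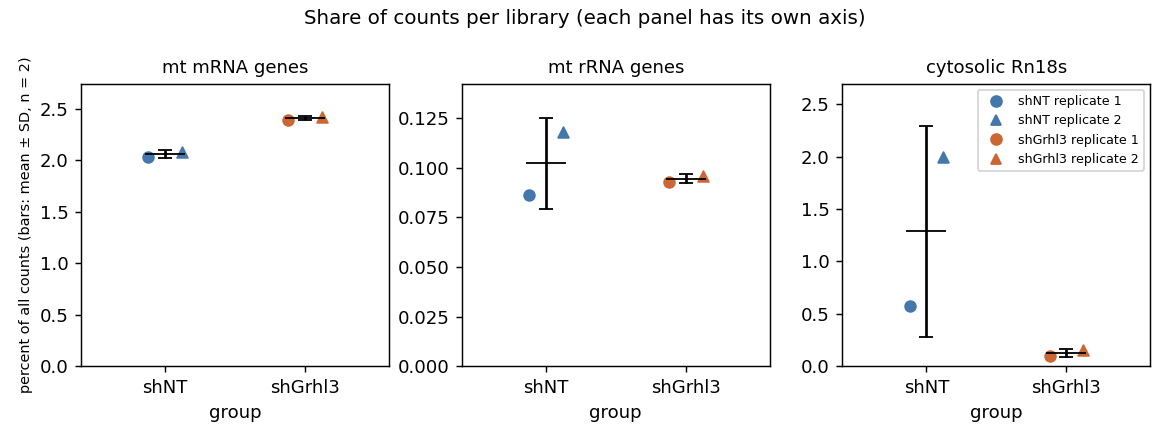
Percent of all named counts per library taken by mitochondrial messenger RNA genes, mitochondrial ribosomal RNA genes and cytosolic Rn18s, each on its own axis, with mean and SD (n = 2). Messenger RNAs were 2.03% and 2.08% in shNT and 2.40% and 2.42% in shGrhl3, while the ribosomal RNA panels show shNT replicate 2 above the other libraries.

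The makeup of the mitochondrial counts within each library does not depend on scaling between libraries. The 6 genes of the poorly counted run took almost none of these counts, so the shares describe mainly the other genes. mt-Co1 was the largest part, at 42.8% and 41.4% of mitochondrial counts in shNT and 39.6% and 39.5% in shGrhl3, so its share was lower in both shGrhl3 libraries. mt-Nd2 took 6.57% and 6.28% in shNT and 6.71% and 7.13% in shGrhl3, and mt-Nd6 2.60% and 2.76% against 3.27% and 2.80%, both higher without overlap. The mt-Nd5 share was 10.3% and 10.01% in shNT and 10.3% in shGrhl3 replicate 1, and 12.8% in shGrhl3 replicate 2 alone. For mt-Nd1, mt-Nd4 and mt-Cytb the shares of the groups overlapped, between 11.4% and 12.5%, 7.06% and 7.90%, and 14.8% and 15.7%. The 2 ribosomal RNAs had lower shares in both shGrhl3 libraries, at 1.14% and 1.11% for mt-Rnr1 against 1.249% and 1.71% in shNT, and 2.59% and 2.70% for mt-Rnr2 against 2.81% and 3.65%. These shares must sum to the whole, so a higher share of one gene lowers the others, and no test was made on them.

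**Figure D4:**
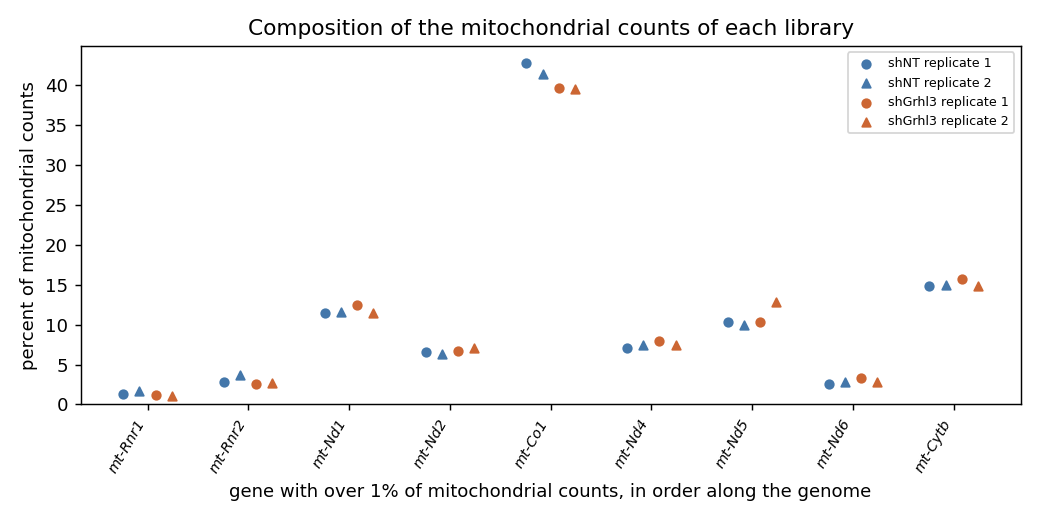
Percent of the mitochondrial counts of each library taken by the 9 genes with over 1% of them, in order along the genome, with 1 point per library. mt-Co1 is at 42.8% and 41.4% in shNT and 39.6% and 39.5% in shGrhl3, and mt-Nd5 is highest in shGrhl3 replicate 2 at 12.8%.

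Nuclear genes that copy, read and process the mitochondrial genome mostly did not pass the test, as was true of all genes tested. Of the latter, 35% passed, 17.1% higher and 17.9% lower. Of 11 tested genes of mitochondrial transcription, 1 was higher in shGrhl3 and 0 lower by edgeR, DESeq2 and limma-voom alike (0 lower at an unadjusted p of 0.05 too), with a median log2 fold change of 0.05. The riser was Mrpl12, a ribosomal protein that also binds the mitochondrial RNA polymerase, from 35.2 ± 0.839 to 44.7 ± 1.16 CPM (SD, n = 2), a log2 fold change of 0.34 (SE 0.11, adjusted p = 0.0143). The polymerase Polrmt (log2 fold change -0.03, SE 0.13, adjusted p = 0.903) and the DNA-packaging activator Tfam (0.22, SE 0.11, adjusted p = 0.132), both chosen after their values were seen, did not pass. Of 23 tested genes of RNA processing and modification, 2 rose (Nsun2 and Trub2) and 2 fell (Trnt1, which adds the end of transfer RNAs, and the ribosomal RNA methylation factor Nsun4, at log2 fold changes of -0.39 and -0.43). Of 17 genes of RNA stability and decay, 3 rose, among them the mitochondrial poly(A) polymerase Mtpap (32.7 ± 0.991 to 43.3 ± 0.901 CPM), Fastkd1 and the helicase Supv3l1. The 1 that fell was Pde12, which removes poly(A) tails in mitochondria (35.1 ± 0.542 to 16.3 ± 3.79 CPM), with a log2 fold change of -1.11 (SE 0.14, adjusted p = 1.63e-06).

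Among genes of mitochondrial DNA upkeep, translation factors and transfer RNA charging, the shares called higher lay near the 17.1% of all genes tested. The shares called lower were 6.67% for upkeep, 0% for translation factors and 4.35% for transfer RNA charging, below the 17.9% of all genes tested. Mitochondrial ribosomal proteins, with 30.8% called higher and 6.41% lower, are described further below. Of 15 tested genes of replication and upkeep, the nuclease Exog (8.11 ± 1.79 to 16.3 ± 1.122 CPM) and the single-stranded DNA binding protein Ssbp1 (26.7 ± 0.483 to 34.7 ± 0.641 CPM) rose, and the topoisomerase Top1mt fell. Of 14 translation factors, 2 rose, Gfm1, the elongation factor G (45.4 ± 1.13 to 62.7 ± 0.259 CPM), and Guf1, and edgeR counted 0 lower, also at an unadjusted p of 0.05. Of 23 genes that charge mitochondrial transfer RNAs, Gars, Nars2 and Qrsl1 rose and Sars2 fell. On this list Lars2, the leucyl enzyme, chosen after its values were seen, had 31672 and 44095 counts in shNT and 2678 and 6083 in shGrhl3, the order of the libraries in Rn18s, and did not pass (log2 fold change -3.27, SE 0.75, adjusted p = 0.0968), though it did with DESeq2 (3.56e-05) and without robust fitting (9.02e-09). The part of Rn18s in the Lars2 values was not tested. The calls of Guf1, Supv3l1, Fastkd1 and Trub2 were lost in 9, 7, 5 and 5 of 14 alternatives, and leaving out 1 library also ended those of Mrpl12, Nsun2, Nsun4, Ssbp1, Top1mt and Qrsl1.

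Many nuclear genes for the partner subunits were higher in shGrhl3. Of all genes tested, 17.1% were higher and 17.9% lower. Of 36 tested nuclear complex I subunits, 18 rose, 2 fell and 16 did not pass, with a median log2 fold change of 0.25. The lowest p-value was that of a falling gene, Ndufa3 (50.6 ± 5.06 to 23.5 ± 3.61 CPM), and the other faller was Ndufv3 (log2 fold change -0.29, adjusted p = 0.0372), while Ndufa10 (67.2 ± 1.17 to 109.0 ± 10.2 CPM), Ndufa9 (80.3 ± 3.42 to 125 ± 5.76 CPM) and Ndufb5 rose. The Ndufv3 call was lost without shGrhl3 replicate 2 (adjusted p = 0.241) and with shNT replicate 2 left out (0.371). Of 9 nuclear complex III subunits, 7 rose, 1 fell and 1 did not pass, with a median of 0.32. Uqcr10 rose from 37.4 ± 0.932 to 90.8 ± 0.534 CPM, a log2 fold change of 1.28 (SE 0.10, adjusted p = 6.61e-10), and Uqcrh, the hinge protein, fell from 123 ± 0.655 to 77.8 ± 6.59 CPM, a log2 fold change of -0.66 (SE 0.09, adjusted p = 5.47e-06).

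Nuclear complex IV subunits rose in 10 of 16 tested genes, beside 17.1% higher and 17.9% lower of all genes tested. There were 0 lower in edgeR at either p, DESeq2 and limma-voom, and the median was 0.27, whereas mt-Co1 of the same complex did not pass. Cox5b (98.8 ± 0.762 to 137 ± 4.88 CPM) and Cox7a2 rose, as did Cox6a2, the heart and skeletal muscle form of a small subunit, from 0.712 ± 0.0275 to 3.20 ± 0.205 CPM, and Cox6b2. Of 15 tested complex V subunits, 8 rose, Atp5l fell and 6 did not pass, with a median of 0.31. Without shNT replicate 1 the log2 fold change of Atp5l went from -0.42 to -0.19 and its call was lost (adjusted p = 0.404). Atp5b, the catalytic beta subunit, rose from 745 ± 2.35 to 1066 ± 40.5 CPM, a log2 fold change of 0.52 (SE 0.08, adjusted p = 1.38e-05). Of 78 mitochondrial ribosomal protein genes, 24 rose, 5 fell and 49 did not pass, with a median of 0.19. Mrpl2 (20.6 ± 1.01 to 34.7 ± 2.39 CPM) and Mrps23 were among the risers, and the fallers were Mrps33 (23.4 ± 0.944 to 9.60 ± 1.31 CPM), Mrps34, Mrps6, Mrps18c and Mrpl54, of which Mrps6, Mrps18c and Mrpl54 were added because the falls are few.

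Over all 12 nuclear lists together, 84 of 264 tested genes rose and 16 fell, with a median of 0.18, beside 17.1% higher and 17.9% lower of all genes tested. With either shNT library left out, fewer of these nuclear genes were called higher, and so were fewer of all genes tested. Members of the cell type marker lists, given above, were called between the same libraries.

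Among 9 regulators of mitochondrial gene supply with enough counts, there were 5 risers and 2 fallers, beside 17.1% higher and 17.9% lower of all genes tested. Ppargc1a and Ppargc1b, coactivators of mitochondrial biogenesis, rose from low levels, from 0.529 ± 0.213 to 2.24 ± 0.363 CPM and from 2.66 ± 0.377 to 6.86 ± 0.672 CPM with log2 fold changes of 2.05 (SE 0.51, adjusted p = 0.00296) and 1.36 (SE 0.26, adjusted p = 0.000257). The nuclear receptors Esrra (35.6 ± 1.17 to 51.6 ± 4.87 CPM) and Esrrg rose too. Of the GABP factor, which binds promoters of respiratory genes, the DNA-binding chain Gabpa fell from 78.8 ± 2.16 to 43.5 ± 3.92 CPM, a log2 fold change of -0.86 (SE 0.10, adjusted p = 4.68e-07), and the partner chain Gabpb1 rose from 30.9 ± 4.11 to 43.8 ± 2.70 CPM, a call lost without shNT replicate 1 (adjusted p = 0.0591). The related coactivator Pprc1 fell from 61.8 ± 1.51 to 41.9 ± 0.205 CPM. Nrf1 and Yy1 did not pass. Ppargc1a, Esrrg and Gabpb1 lie outside the rule for named genes and were added because the calls are few.

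**Figure D5:**
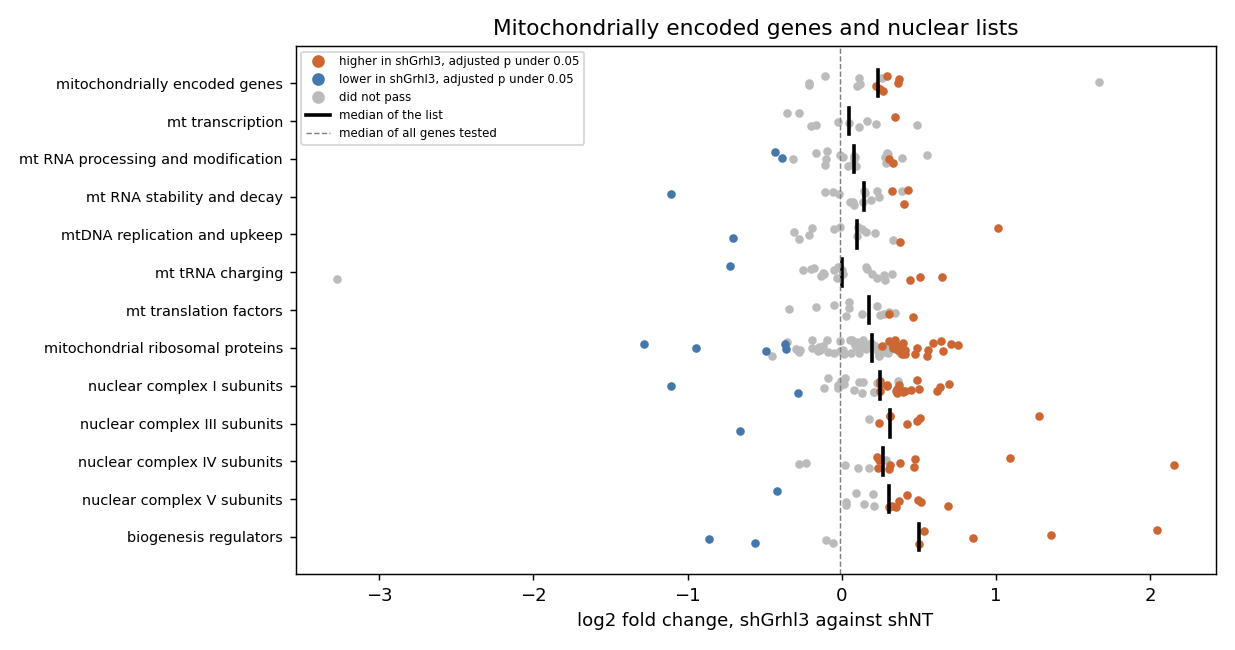
Log2 fold change of shGrhl3 against shNT for each tested gene of the mitochondrially encoded set and of 12 nuclear lists, coloured by call, with the median of each list as a black bar and that of all genes tested as a dashed line. The medians of the nuclear complex I, III, IV and V lists are 0.25, 0.32, 0.27 and 0.31, and that of the mitochondrially encoded genes is 0.24.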

How the data were processed

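Total RNA of the 4 libraries was taken in TRIzol, per the labels' protocols. The authors deposited 1 table of raw counts per gene for the 4 libraries, whole numbers that were used as deposited. The submitters' processing notes name cutadapt 1.9.1, HISAT2 2.0.1, Bowtie2 2.2.6, MACS2, ChIPseeker and mm10, with no role given. Not given in the sources used here are the counter, its strand setting and its handling of reads with several matches. The 4 H3K27ac CUT&Tag samples are not analysed here. The 1438 rows that name no gene, 0.00432% to 0.00872% of counts, were left out.

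Genes were filtered with filterByExpr at a minimum count of 10 and scaled by TMM. shGrhl3 was compared with shNT by edgeR 4.0.16 (quasi-likelihood, robust, R 4.3.3), with Benjamini-Hochberg adjustment over 15324 genes and a threshold of 0.05. Code was tested on simulated data. DESeq2 1.42.0, limma-voom (limma 3.58.1), other scalings, filters and left-out libraries were alternatives. Named were all mitochondrial protein and ribosomal RNA genes, transfer RNAs with at least 20 counts, and up to 4 called genes with the lowest p of each nuclear list, or all calls of a direction where there were 3 or fewer. The genes and lists were chosen with earlier results of these data known.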

Additional observations from a re-analysis of the deposited data

How the results depend on the processing

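The count of mitochondrially encoded genes called higher was 6 in 8 of the 10 alternatives that kept all libraries, 7 with scaling by library size only and 4 with the replicate number as a block. Leaving out 1 library gave 1 to 6 higher (1 without shNT replicate 1, 3 without shNT replicate 2) and 0 to 1 lower (mt-Rnr1, without shNT replicate 1). The cause was not tested, beyond the fewer libraries themselves. Fewer of all genes tested were also called, higher and lower, in each fit with 1 library left out, most so without an shNT library. A drop in calls in these fits was therefore not particular to mitochondrial genes. Of the nuclear genes, 50 to 93 were higher with 1 library left out (50 without shNT replicate 1, 53 without shNT replicate 2). Same-numbered libraries did not deviate together across genes (correlation -0.06), and the labels do not state whether the numbers pair them. This correlation cannot exclude pairing, since a pairing that touched few genes would not show in it. With the replicate block the adjusted p was 0.0523 for mt-Nd1, 0.0779 for mt-Cytb and 0.0611 for Ndufv3, and Lars2 passed (6.90e-19). The sign turned with 1 library left out for mt-Atp6 (log2 fold change -0.13 to 0.37), mt-Rnr1 (-0.45 to 0.068), mt-Rnr2 (-0.31 to 0.13), Gm10222 (-0.24 to 1.02) and Polrmt (-0.077 to 0.038). It also turned for the shares of mitochondrial counts of mt-Nd1 (difference -0.0545 to 1.02 percentage points), mt-Atp6 (-0.00271 to 0.00126) and mt-Cytb (-0.0573 to 0.821), alternatives chosen after seeing the data. The difference in the share of counts from all mitochondrial genes was 0.302 to 0.388 percentage points with 1 library left out. With 2 libraries per group, and under 100 counts per library for mt-Atp6, mt-Atp8, mt-Nd3 and mt-Nd4l, modest changes in those genes were not detectable.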
